A study of Mus musculus with 96 samples.

Results

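miR-223 and miR-142a, a miRNA of myeloid cells and a miRNA of all leukocytes, were followed through 4 cell isolates of the infarcted mouse heart. The members were the 4 mature arms mmu-miR-223-3p, mmu-miR-223-5p, mmu-miR-142a-3p and mmu-miR-142a-5p, written here without the species prefix, which were taken by name, as 4 of the 1978 mature miRNAs listed. Small RNA had been sequenced in 96 libraries from hematopoietic cells (HCs), cardiomyocytes (CMs), fibroblasts (FBs) and cells of the endothelium (ECs), with 4 libraries for each cell type at each of 6 time points. The hearts came from inbred male C57Bl/6J mice, 12 to 14 weeks old, in which the left anterior descending coronary artery was tied permanently to cause an acute myocardial infarction. They were taken 1, 3, 7, 14 and 28 days later (D1 to D28), while D0 hearts came from mice without an operation, so the changes against D0 contain surgery as well as infarction. No transgene, Cre line or drug is named for any group. Each library is a pool of 3 mice, in some cases of 2, and the p-values therefore measure the spread between pools. Per the study's methods the isolates of a day came from the same mice, but whether equal replicate numbers mark the same mice is not stated, so the tests between isolates treat libraries as independent and are also given with day and number as a block. HCs were cells held by anti-CD45 beads, ECs were held by anti-CD144 beads from the unbound cells, FBs were the predominantly DDR2-positive cells that then adhered to plastic, and CMs were enriched by slow centrifugation. Libraries were prepared one cell type at a time, so that library preparation and cell type cannot be told apart in any comparison between isolates.

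The total count on mature miRNAs lay between 18286 and 65588543 per library. The lowest total belongs to replicate 3 of HCs at D0, against 26449253 to 29504666 in the other 3 libraries of that group, and the called changes of the members against D0 in HCs are also given without it. It is kept in all other values unless stated. The isolates carried the miRNAs of their own cell type at the highest level, but not those alone. The summed cardiomyocyte miRNAs miR-1a-3p, miR-133a-3p, miR-208a-3p and miR-499-5p reached 311200 to 709000 counts per 1000000 mature miRNA counts (CPM) in CMs, 20920 to 162100 in ECs, 776 to 5825 in FBs and 25980 to 132300 in HCs. The endothelial arms of miR-126a summed to 103800 to 234300 CPM in ECs and to 14780 to 91840 CPM in HCs, and the fibroblast markers miR-199a-5p and miR-214-3p to 10200 to 25530 CPM in FBs and 543.7 to 4683 CPM in HCs. The summed level of a list of 10 other leukocyte miRNAs was 78490 to 219400 CPM in HCs, 11790 to 68720 in FBs, 10260 to 25130 in ECs and 562.7 to 15620 in CMs. The list includes miR-21a-5p, which many cell types make. The red cell miRNAs miR-451a, miR-144-3p and miR-486a-5p summed to 305 to 2844 CPM in HCs, 1115 to 3401 in CMs, 737.3 to 4246 in ECs and 275.7 to 3475 in FBs.

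A miRNA is cut from a hairpin as a duplex, one strand of which is usually kept in an Argonaute protein and guides it to mRNAs through its seed, bases 2 to 8 from the 5′ end. miR-223 is made from its own gene under the control of myeloid transcription factors, is most abundant in neutrophils, monocytes and macrophages, and restrains granulocyte production and inflammatory signalling. miR-142 is transcribed in nearly all blood lineages, lymphocytes included, and both of its arms are loaded. After an infarction, neutrophils enter the heart first and are followed by monocytes and macrophages that clear dead tissue, so both miRNAs are read as measures of leukocyte RNA in a tissue.

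The 4 members and the arm encoded opposite miR-142a are shown because each result below rests on reads of these short sequences. They were taken from RefSeq (GRCm38.p6, the build named mm10 in the submitters' processing notes) and are written 5′ to 3′, with the seed in capitals.
miR-223-3p: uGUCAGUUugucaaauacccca
miR-223-5p: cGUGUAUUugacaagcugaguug
miR-142a-3p: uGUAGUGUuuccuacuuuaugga
miR-142a-5p: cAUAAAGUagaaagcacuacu
miR-142b: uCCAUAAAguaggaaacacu
The 4 seeds differ from one another, and no other of the 1738 mature mouse miRNAs in the RefSeq table has any of them. No other miRNA has the same counts as a member in all libraries. miR-142b is made from the opposite strand and is complementary to bases 4 to 23 of miR-142a-3p.

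The hairpins show where the arms lie, here in capitals.
Mir223: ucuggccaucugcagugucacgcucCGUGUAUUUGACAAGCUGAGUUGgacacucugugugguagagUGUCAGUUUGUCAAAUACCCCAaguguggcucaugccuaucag
Mir142: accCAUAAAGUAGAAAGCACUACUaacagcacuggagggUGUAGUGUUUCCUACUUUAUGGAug
Mir223 occupies 110 bases of the X chromosome at chrX:96242817-96242926 on the plus strand, with the 5p arm at chrX:96242842-96242864 and the 3p arm at chrX:96242884-96242905. In the GENCODE annotation of the same build the hairpin lies inside an exon of the long noncoding gene F630028O10Rik, which runs in the same direction. Mir142 occupies 64 bases at chr11:87756864-87756927 on the plus strand, with the 5p arm at chr11:87756867-87756887 and the 3p arm at chr11:87756903-87756925. It lies within the gene Mir142hg without touching one of its exons, and Mir142b lies opposite on the minus strand.

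In HCs the guide arm mmu-miR-223-3p rose within a day of the infarction and had fallen back towards its D0 level at D7. Its level was 813, 675, 1148 and 753 CPM in the 4 libraries of D0, where the third value rests on 21 counts. At D1 it was 2975, 2444, 3818 and 4539 CPM, and at D3 2949, 2670, 2065 and 3459 CPM, so that every library of both days lay above every library of D0. In these bulk isolates, more cells of a type and more of the miRNA per cell cannot be told apart. At D7 the levels were 1135, 986, 1479 and 1223 CPM, at D14 1057, 1184, 1076 and 1208 CPM, and at D28 1267, 1368, 1386 and 1379 CPM. The D7 and D14 libraries overlap those of D0, and the D28 libraries lie just above the highest of them. Both statements rest on the shallow D0 library. All libraries of D7, D14 and D28 lay above the deep D0 libraries, at 675 to 813 CPM.

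With edgeR's quasi-likelihood test, fitted to all 608 miRNAs tested in HCs, the log2 fold change of miR-223-3p against D0 was 1.74 ± 0.17 (SE, adjusted p = 9.3e-09) at D1. It was 1.33 ± 0.168 (edgeR, adjusted p = 2.2e-07) at D3, 0.25 ± 0.166 (edgeR, adjusted p = 0.22) after 7 days, 0.23 ± 0.166 (edgeR, adjusted p = 0.31) at D14 and 0.52 ± 0.166 (edgeR, adjusted p = 0.023) at D28. The fall from D3 to D7 was itself past the threshold, by 1.08 on the log2 scale (edgeR, adjusted p = 2e-05), where 8.88% of the 608 miRNAs were called lower. Without the shallow library of D0 the changes at D1, D3 and D28 were 1.72, 1.35 and 0.51 and were called as well. Among the mature miRNAs of HCs, miR-223-3p stood at rank 83 by mean CPM at D0, 46 at D1, 51 at D3 and 73 or 74 later. The call at D28 was lost when replicate 2 of D0 or replicate 4 of D28 was left out and without a filter on low counts (adjusted p = 0.22).

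The passenger arm mmu-miR-223-5p showed no called change in HCs. It stood at 361, 347 and 450 CPM in the deep D0 libraries and at 3 counts, or 164 CPM, in the shallow one. At D1 it stood at 840, 687, 511 and 616 CPM, above all D0 libraries, and at D3 at 563, 561, 792 and 442 CPM, which overlaps D0. The change was 0.44 ± 0.227 (edgeR, adjusted p = 0.11) at D1 and between -0.25 and 0.20 on the later days. Scaling by library size alone, or DESeq2 in place of edgeR, called the arm at D1 (0.85, adjusted p = 0.00096, and 0.62, adjusted p = 0.012) and at D3 (0.68 and 0.50).

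mmu-miR-142a-3p, the most abundant member, rose at the same time and was also called higher at D7. It stood at 4160, 3094, 2461 and 3425 CPM at D0, the third value from 45 counts. It stood at 10928, 11854, 10989 and 14879 CPM at D1, at 15223, 15310, 7937 and 7059 CPM at D3 and at 10161, 11427, 6348 and 9011 CPM at D7. All libraries of these 3 days lay above all of D0. At D14 the levels were 5056, 7010, 6751 and 4038 CPM and at D28 3770, 5152, 4335 and 6382 CPM, and both groups overlap D0. miR-142a-3p thus made up 0.328% of the mature counts at D0 (rank 48), 1.22% at D1 (rank 21), 1.14% at D3 (rank 19), 0.924% at D7 (rank 24), 0.571% at D14 (rank 36) and 0.491% at D28 (rank 41).

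The log2 fold change of miR-142a-3p against D0 was 1.49 ± 0.254 (SE, edgeR, adjusted p = 2.6e-05) at D1, 1.30 ± 0.253 (adjusted p = 9.2e-05) at D3 and 1.11 ± 0.252 (adjusted p = 0.0007) at D7. At D14 it was 0.49 (edgeR, adjusted p = 0.15) and at D28 0.32 (edgeR, adjusted p = 0.39). Without the shallow D0 library the called changes were 1.30, 1.14 and 0.92, and all 3 were called.

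The other arm, mmu-miR-142a-5p, has its own seed and reached its highest level at D3. It stood at 1019, 809 and 680 CPM in the deep D0 libraries, at 2133 CPM (39 counts) in the shallow one, at 2564, 2526, 2607 and 4429 CPM at D1 and at 3822, 4728, 2555 and 6326 CPM at D3. All libraries of D1 and D3 lay above D0, whereas at D7 one library of 4 fell below the shallow D0 library. The D7 levels were 3779, 3120, 1890 and 2655 CPM, and those of D14 and D28 ranged from 1122 to 2282 and from 1315 to 1695 CPM. The log2 fold change was 1.24 ± 0.258 (edgeR, adjusted p = 0.00026) at D1, 1.65 ± 0.261 (adjusted p = 5.7e-06) at D3 and 1.18 ± 0.258 (adjusted p = 0.0005) at D7, and the fall of 0.69 from D7 to D14 was called (edgeR, adjusted p = 0.049), where 10.7% of miRNAs were called lower. That call was lost when scaled by library size alone (adjusted p = 0.064) and with the replicate number as a block (adjusted p = 0.081). Leaving out the shallow library gave 1.38, 1.82 and 1.32 for the first 3 days, all called.

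Counted by day, 3 of the 4 members were called higher in HCs at D1, against 25.3% of all miRNAs tested, 3 of 4 at D3, against 30.9%, 2 of 4 at D7, against 29.9%, none at D14, against 15.3%, and 1 of 4 at D28, against 12.7%. At D14 no member had an unadjusted p under 0.05, and DESeq2 called none there either. With 1 library left out, miR-142a-5p was called higher at D14 in 3 of 24 fits, including that without the shallow library. miR-142a-3p was called there in 4 of 24 such fits. These fits kept the filter of all libraries. No member was called lower than D0 on any day in HCs. The antisense arm miR-142b was seen at 0 to 66 counts per library at D0 and at 21 to 284 counts at D3, or 0 to 2.50 and 4.33 to 11.8 CPM. It rose at D1 (0.83, edgeR, adjusted p = 0.03) and D3 (1.25, adjusted p = 0.0013), also without the shallow library (0.80 and 1.25), and fell from D7 to D14 by 0.96 (adjusted p = 0.023). Outside HCs it was seen at 0 to 16 counts per library.

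**Figure D1:**
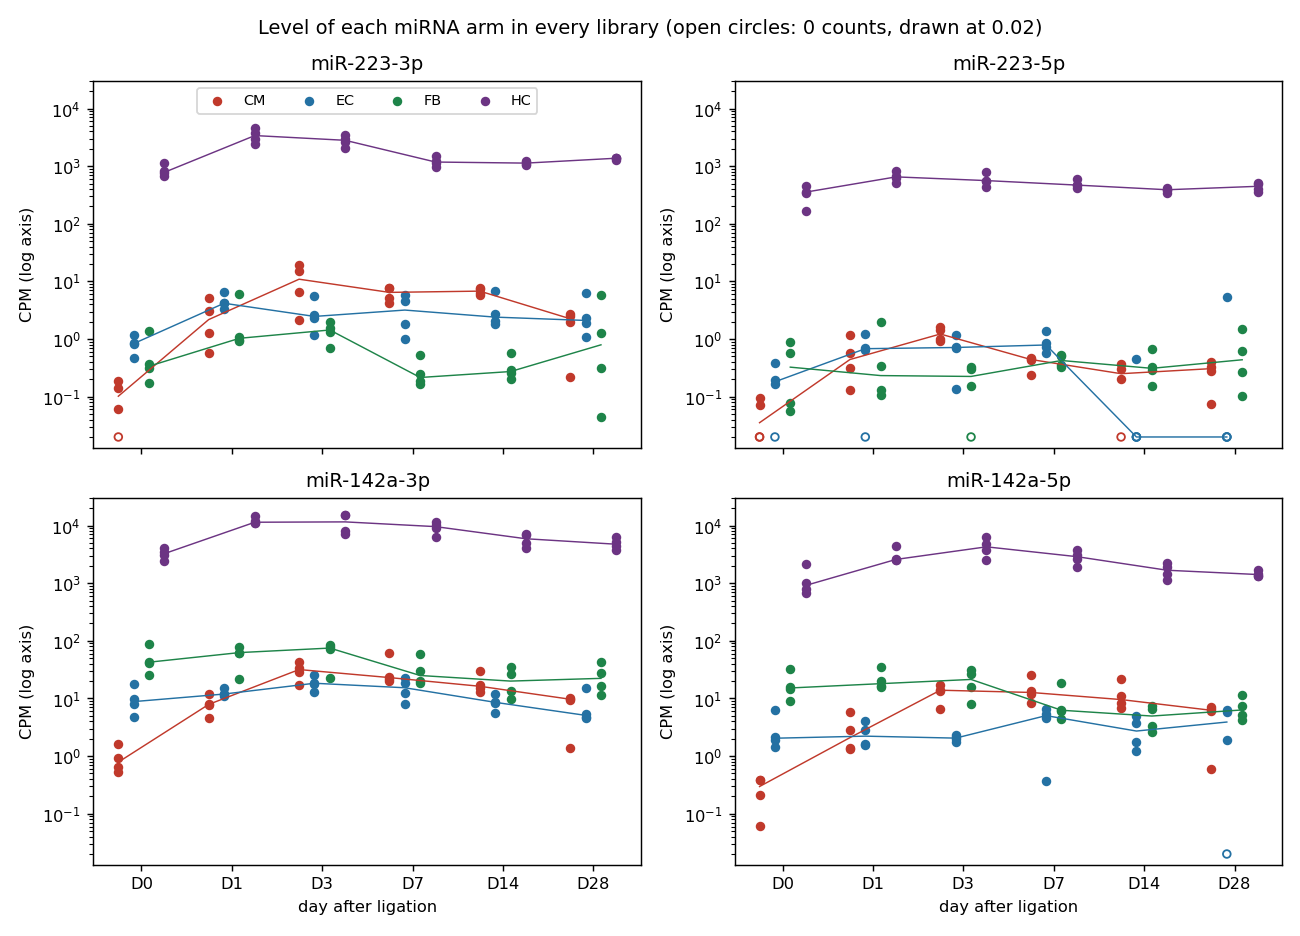
Level of each member in CPM (log axis) in every library by day and cell type, where lines join the medians and open circles at 0.02 mark libraries with 0 counts. HC libraries lie far above all others for all 4 arms, with miR-142a-3p between 2461 and 15310 CPM in HCs and between 0.535 and 88.4 CPM in the other isolates.

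Other miRNAs of the HC isolate moved at the same time. The summed cardiomyocyte markers in HCs fell from 85780 to 132300 CPM at D0 to 38490 to 64740 CPM at D3 and 25980 to 45410 CPM at D7, and all 4 were called lower at D3 and D7. Both endothelial arms of miR-126a and both mural markers, miR-143-3p and miR-145a-5p of smooth muscle and pericytes, were called lower at D3 and D7, and both fibroblast markers were called lower at D1 and D3 and higher at D14 and D28. Over all miRNAs, 28.9% were called lower at D1, 28.1% at D3 and 19.6% at D7. Without the shallow library these marker calls were the same in number. None of these markers was at 0 in an HC group. The part of these shifts in the rise of the members was not tested.

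Of the 10 miRNAs of the leukocyte list, 2 were called higher and 6 lower in HCs at D1, and 2 higher and 5 lower at D3, where 25.3% and 30.9% of all miRNAs were called higher. Without the shallow library the counts were 2 and 7 at D1 and 3 and 5 at D3. The median log2 fold change of the list was -0.64 at D1 and -0.57 at D3, beside -0.08 and 0.02 over all miRNAs tested. The 2 that rose on all 5 days were miR-147-3p, which is induced in macrophages by Toll-like receptor signals, with 4.39 at D1 and 4.65 at D3, and miR-21a-5p, which rose by 0.79 and 1.55. The lymphocyte miRNAs miR-150-5p and miR-342-3p changed by -0.91 and -0.61 at D1, both called, and miR-146a-5p, a brake on NF-κB signalling, by -1.51 at D1 and -1.96 at D3. miR-511-3p, which lies in an intron of the macrophage receptor gene Mrc1, was not called (0.61, edgeR, adjusted p = 0.092 at D3), and its other arm was called lower at D1 (-2.57, adjusted p = 0.0011). At D7 the list held 2 higher and 1 lower, and at D14 and D28 2 higher and none lower.

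**Figure D2:**
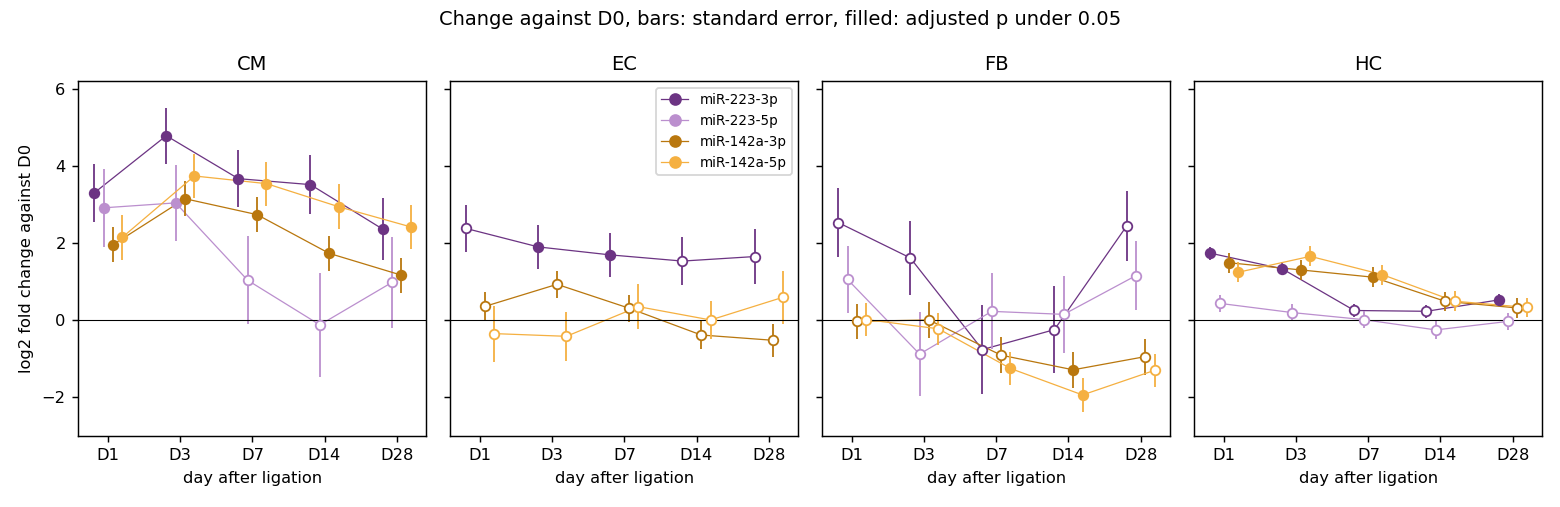
Log2 fold change of the members against D0 with its standard error, by day and cell type, with filled points for an adjusted p under 0.05 in edgeR. In HCs the filled points end at D7 for the arms of miR-142a, in CMs the changes reach 4.78, in ECs miR-223-3p alone has filled points (miR-223-5p had too few counts to be tested), and in FBs the filled points lie below 0.

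All 4 members were higher in HCs than in CMs and FBs on each day, and 3 of them were tested and higher than in ECs. In a fit of edgeR to all 96 libraries and 712 miRNAs, the 66 comparisons were all called, with an adjusted p of at most 4.3e-16, and were called with day and replicate number as a block as well. miR-223-5p, with 0 to 14 counts per EC library, passed the filter of this fit through other isolates, and its comparisons with ECs are not counted. The HC libraries alone, where the members are high, carried each of them past this filter. The counted comparisons include miR-223-5p at 0 to 1 counts per CM library at D0 and 0 to 7 per FB library at D3. The share of all 712 miRNAs called higher in HCs was 31.6%, 29.5%, 29.5%, 31.9%, 30.5% and 36.8% against CMs from D0 to D28, 18.4%, 24.6%, 31%, 28.5%, 23.6% and 26.5% against ECs, and 28.2%, 36.1%, 36.9%, 39%, 34.1% and 33.8% against FBs. The log2 difference ranged from 5.73 to 9.91 against CMs, from 7.71 to 9.96 against ECs and from 5.33 to 11.65 against FBs, with the largest value for miR-223-3p against FBs.

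Expressed as a percent of the HC mean of the same day, the members in CMs were lowest at D0 and highest between D3 and D14. miR-223-3p in CMs was 0.0116% ± 0.00995 (SD, n = 4) of the HC level on D0, 0.388% ± 0.281 on D3, 0.519% ± 0.151 on D7, 0.594% ± 0.0797 on D14 and 0.138% ± 0.0852 on D28. miR-142a-3p in CMs went from 0.0284% ± 0.0149 at D0 to 0.344% ± 0.211 at D7 and 0.157% ± 0.0857 at D28. In ECs, miR-223-3p stood at 0.0978% ± 0.0336 at D0 and at 0.105% to 0.301% later. In FBs, miR-142a-3p was 1.52% ± 0.821 at D0 and 0.345% to 0.567% later, while miR-223-3p was 0.0232% to 0.136%. These percents depend on the scale. Averaged over the 24 CM libraries, miR-223-3p was 0.288% of HCs in CPM and 0.991% with TMM factors over all 96 libraries, and miR-142a-3p in ECs went from 0.175% to 0.291%.

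The order of the 3 other isolates depended on the scale too. In CPM at D0, miR-142a-3p was 25.7 to 88.4 in FBs, 4.75 to 17.97 in ECs and 0.535 to 1.62 in CMs, with no overlap between neighbours. On the TMM scale the CM range of 3.61 to 9.39 overlapped the EC range of 4.94 to 16.8. At D3 the TMM range of CMs, 40.7 to 116, overlapped that of FBs, 17.3 to 61.7, and lay above that of ECs, 10.3 to 25.0. miR-223-3p at D3 was 2.12 to 19.3 CPM in CMs, 1.18 to 5.54 in ECs and 0.692 to 1.98 in FBs, so that each isolate overlapped its neighbour.

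In CMs the members were close to absent at D0 and rose from D1. miR-223-3p had 2, 2, 1 and 0 counts in the D0 libraries, or 0.190, 0.142, 0.0623 and 0 CPM. It had 31, 8, 47 and 82 counts (0.564 to 5.24 CPM) at D1 and 23, 120, 272 and 149 counts (2.12, 6.63, 19.3 and 15.2 CPM) at D3. Every library after D0 lay above the D0 libraries, including the lowest of D28 with 3 counts. At D7 and D14 the level was 4.29, 7.83, 5.14 and 7.78 CPM and 7.60, 7.35, 5.71 and 6.23 CPM, and at D28 it was 0.221, 1.95, 2.55 and 2.75 CPM. A total of 5 counts at D0 makes the size of the rise uncertain. Pooled over the 4 libraries, the CPM of D3 was 115 times that of D0, with an exact 95% interval of 48.9 to 355 that covers counting error only.

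On the TMM scale the log2 fold change of miR-223-3p in CMs was 3.30 ± 0.760 (SE, edgeR, adjusted p = 0.0076) at D1 and 4.78 ± 0.730 (adjusted p = 1.5e-05) at D3. It was 3.67 (edgeR, adjusted p = 0.00018) at D7, 3.51 (adjusted p = 0.00035) at D14 and 2.36 (adjusted p = 0.015) at D28. These changes are smaller than the ratio of pooled CPM. Scaled by library size alone, the median change of all 484 miRNAs tested in CMs was 1.42 to 2.99 on the log2 scale, against 0.20 to 0.44 with TMM factors. miR-223-5p was seen at 1, 1, 0 and 0 counts at D0 and at 11, 29, 13 and 14 counts at D3, and it was called at D1 (2.91 ± 1.01, edgeR, adjusted p = 0.037) and D3 (3.04 ± 0.985, adjusted p = 0.011). This arm passed the filter on low counts through its D3 libraries, at 0.920 to 1.60 CPM, so the filter favoured a rise at D3. Its call at D1 was lost when any of 5 libraries was left out, among them replicate 1 of D1, without which the change was 1.799.

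Both arms of miR-142a rose on all 5 days in CMs. miR-142a-3p went from 1.62, 0.637, 0.934 and 0.535 CPM at D0 to 8.03, 4.65, 7.74 and 12.1 CPM at D1 and 17.2, 43.1, 29.3 and 34.2 CPM at D3. It stood at 22.1, 60.8, 20.2 and 23.98 CPM at D7, at 12.9, 17.2, 29.8 and 15.3 CPM at D14 and at 1.40, 9.47, 9.92 and 10.0 CPM at D28. All libraries from D1 to D14 lay above those of D0, and at D28 replicate 1 lay within the D0 range. The log2 fold change was 1.95 (edgeR, adjusted p = 0.0076) on D1, 3.15 (adjusted p = 1e-05) on D3, 2.73 (adjusted p = 2.1e-05) on D7, 1.73 (adjusted p = 0.0019) on D14 and 1.17 (adjusted p = 0.031) on D28. The D28 call was lost in 14 of 24 fits that left out 1 library.

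miR-142a-5p in CMs had 1 to 5 counts at D0, 71 to 259 counts at D3 and 131 to 322 counts at D7. Its log2 fold change was 2.15 (edgeR, adjusted p = 0.012) on D1, 3.74 (adjusted p = 1.5e-05) on D3, 3.54 (adjusted p = 1.5e-05) on D7, 2.94 (adjusted p = 0.00014) on D14 and 2.42 (adjusted p = 0.0014) on D28. The step of 1.59 from D1 to D3 was called (edgeR, adjusted p = 0.027), where 8.26% of miRNAs were called higher. It was the only step between successive days that edgeR called for a member in CMs. Against D0, the members called higher in CMs were 4 of 4 on D1 (background 13.6%), 4 of 4 on D3 (31.8%), 3 of 4 on D7 (38.8%), 3 of 4 on D14 (38%) and 3 of 4 on D28 (29.5%). The counts of D1 and D3 include miR-223-5p, which was tested in CMs because of its D3 level. miR-223-3p and miR-142a-5p, at most 0.190 and 0.382 CPM at D0, also passed the filter through libraries after D0. The filter thus favoured a rise of these 2 arms as well, and they are in the counts of all 5 days.

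**Figure D3:**
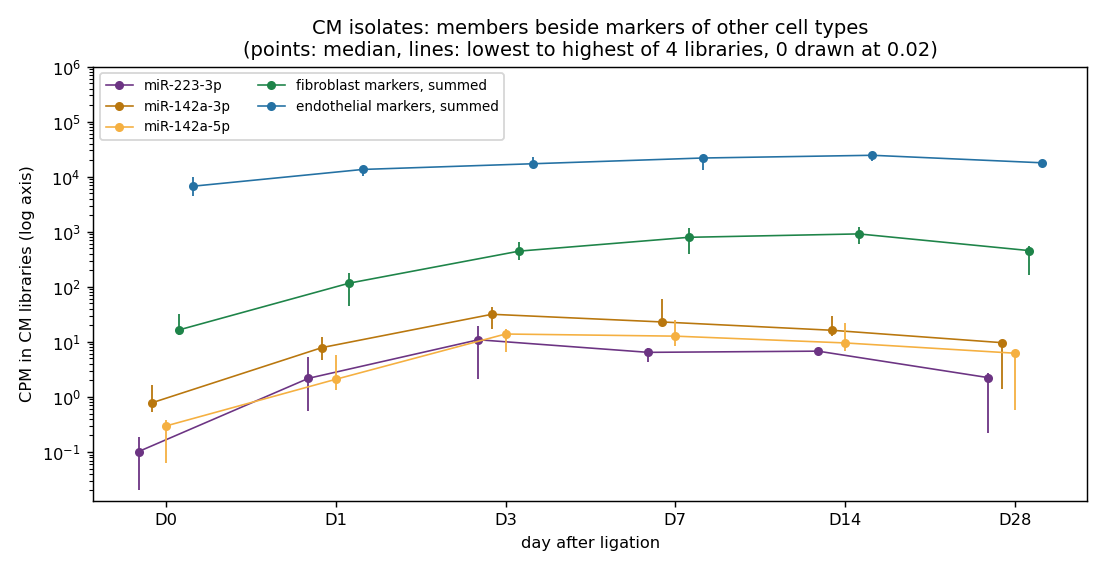
Members and summed markers of other cell types in the CM libraries, in CPM on a log axis, with points for the median and lines from the lowest to the highest of 4 libraries. Fibroblast markers rose together with the members, from 13.6 to 32.8 CPM at D0 to 607 to 1222 CPM at D14, and replicate 1 of D28 forms the low end of each line at that day for the members.

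Markers of other cell types moved beside the members in CMs. The 2 fibroblast markers summed to 13.6 to 32.8 CPM at D0 and to 607 to 1222 CPM at D14, and both were called higher from D3 to D28, with a log2 fold change of miR-199a-5p of 2.60 at D3 and 2.92 at D7. The arms of miR-126a summed to 4423 to 9789 CPM at D0 and 19280 to 27650 CPM at D14, and the cardiomyocyte markers went from 603400 to 709000 CPM to 311200 to 419400 CPM. The direction of these last 2 lists depends on the scale, since with TMM factors edgeR called 3 of the 4 cardiomyocyte markers higher and 1 lower at D14, and 1 arm of miR-126a higher and 1 lower. The fibroblast markers were higher on both scales, as were the members apart from miR-223-5p, which changed by -0.12 with TMM factors and by 2.21 by library size alone at D14. With TMM factors, the red cell miR-144-3p was called higher on all 5 days (3.13 to 4.02) and miR-451a at D3, D7 and D14 (1.23 to 1.81). On the same scale miR-486a-5p was called lower on all 5 days (-1.97 to -1.18). Of the mural markers, miR-143-3p was called lower on all 5 days and miR-145a-5p on none. Of the 9 leukocyte list members tested in CMs, 2 were called higher at D1, 4 at D3 and at D7, and 3 at D14 and at D28, against the 13.6% to 38.8% of all miRNAs given above. miR-147-3p rose by 5.48 ± 0.992 (SE) at D3 and miR-511-3p by 6.03 ± 1.08. The size of these 2 rises is uncertain, since each miRNA had a total of 1 count in the 4 libraries of D0. With TMM factors miR-155-5p and miR-146b-5p were called lower at D7 and D14, but in CPM both were higher there. In CPM miR-155-5p was 36.7 to 78.6 at D0 and 177 to 252 at D14. miR-146b-5p was 10.1 to 19.2 CPM at D0 and 36.3 to 45.3 CPM at D14. The part of non-cardiomyocyte RNA in the rise of the members was not tested. Replicate 1 of D28 stands apart, with 3, 1, 19 and 8 counts of miR-223-3p, miR-223-5p, miR-142a-3p and miR-142a-5p. Its leukocyte list summed to 3593 CPM against 6133 to 6806 CPM in the other 3 libraries of the group, and its fibroblast markers to 163 CPM against 411 to 560 CPM.

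In ECs miR-223-3p was called higher at D3 and D7, from few counts. It passed the filter on low counts through libraries after D0, so the filter favoured a rise. The D0 libraries held 3, 5, 17 and 1 counts, or 1.17, 0.838, 0.831 and 0.475 CPM. The D1 libraries held 6, 15, 3 and 16 counts (4.22, 3.29, 4.14 and 6.50 CPM) and the D3 libraries 13, 161, 2 and 11 counts (2.33, 5.54, 1.18 and 2.61 CPM). The D1 libraries lay above all of D0, whereas the lowest D3 library exceeded the highest of D0 only in the third digit. At D7 the levels were 5.78, 1.02, 4.55 and 1.82 CPM, at D14 2.76, 2.05, 1.85 and 6.96 CPM, and at D28 1.90, 1.09, 6.29 and 2.31 CPM. The log2 fold change was 2.38 ± 0.621 (edgeR, adjusted p = 0.091) on D1, 1.90 ± 0.577 (adjusted p = 0.019) on D3, 1.69 ± 0.577 (adjusted p = 0.031) on D7, 1.53 ± 0.623 (adjusted p = 0.096) on D14 and 1.65 ± 0.710 (adjusted p = 0.057) on D28.

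The calls in ECs were thus 1 of 3 members tested at D3, against 15.4% of all miRNAs, and 1 of 3 at D7, against 17.8%. At D1 edgeR called 0% of the 421 miRNAs tested in ECs, and miR-223-3p had an unadjusted p of 0.000646 there, the only member under 0.05. DESeq2 called it at D1 (2.38, adjusted p = 0.029) and D28 (1.73, adjusted p = 0.035). Both calls of edgeR were lost when replicate 2, 3 or 4 of D0 was left out. The D3 call was also lost without replicate 2 of D3, where the change was 1.32, and the D7 call without replicate 1 or 3 of D7. miR-223-5p had 0 to 14 counts per EC library and was removed by the filter on low counts.

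The arms of miR-142a showed no called change in ECs. miR-142a-3p stood at 17.97, 9.72, 7.92 and 4.75 CPM at D0 and at 25.6, 18.9, 13.0 and 17.8 CPM at D3, with a log2 fold change of 0.93 ± 0.357 (edgeR, adjusted p = 0.068). Its change was -0.52 to 0.36 on the other days. miR-142a-5p, at 0 to 57 counts per library, changed by -0.42 to 0.59. Within the EC libraries the cardiomyocyte markers fell from 75960 to 134300 CPM at D0 to 20920 to 53910 CPM at D14. All 4 were called lower at D28, where 20.2% of miRNAs were called lower. On the days of the miR-223-3p calls the fibroblast marker miR-214-3p was called higher (1.62 at D3 and 1.75 at D7), miR-199a-5p was called at D7 (1.53) and the red cell miR-451a at D3 (2.09). The part of these in the change of miR-223-3p was not tested. Of 8 leukocyte list members tested, miR-147-3p, miR-21a-5p and miR-155-5p were called higher at D3. The lymphocyte miRNAs miR-150-5p and miR-342-3p were present at a summed 1046 to 4887 CPM, which overlaps the 1736 to 9395 CPM of HCs, while the members in ECs stayed below 1% of the HC mean with 1 exception, miR-223-5p at 1.24% in 1 library of D28 with 10 counts.

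In FBs the arms of miR-142a were called lower instead, miR-142a-5p at D7 and D14 and miR-142a-3p at D14 alone. miR-142a-5p stood at 15.9, 9.02, 32.1 and 14.5 CPM at D0, at 34.6, 15.7, 16.4 and 19.7 CPM at D1 and at 30.8, 27.0, 7.94 and 15.8 CPM at D3. It then stood at 6.13, 4.44, 18.3 and 6.36 CPM at D7, at 7.34, 2.58, 6.60 and 3.31 CPM at D14 and at 4.19, 7.37, 5.27 and 11.3 CPM at D28. All D14 libraries lay below all D0 libraries, and replicate 3 of D7 lay within the D0 range. The log2 fold change was 0.01 on D1, -0.22 on D3, -1.25 ± 0.433 (edgeR, adjusted p = 0.02) on D7, -1.94 ± 0.445 (adjusted p = 0.0023) on D14 and -1.30 ± 0.431 (adjusted p = 0.071) on D28.

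miR-142a-3p in FBs stood at 43.7, 25.7, 88.4 and 41.5 CPM at D0 and at 35.7, 9.89, 26.4 and 13.7 CPM at D14, groups that overlap in 2 D14 libraries. Its log2 fold change was -0.03 on D1, 0.00 on D3, -0.91 (edgeR, adjusted p = 0.12) on D7, -1.29 ± 0.472 (adjusted p = 0.046) on D14 and -0.95 (adjusted p = 0.26) on D28. The members called lower in FBs were therefore 1 of 4 at D7, against 21.1% of 563 miRNAs, and 2 of 4 at D14, against 10.3%. The D14 call of miR-142a-3p was lost in 16 of 24 fits that left out 1 library and when scaled by library size alone (-1.23, adjusted p = 0.069). The D7 call of miR-142a-5p was lost without replicate 3 of D0 or replicate 1, 2 or 4 of D7 and under that scaling (-0.98, adjusted p = 0.095).

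miR-223-3p had few counts in FBs, and 2 libraries carried 62.8% of the 616. It had 7, 3, 3 and 4 counts at D0 (0.171 to 1.35 CPM), 275, 20, 26 and 17 counts at D1 (6.15, 0.956, 0.910 and 1.11 CPM) and 15 to 23 counts at D3 (0.692 to 1.98 CPM). At D7 and D14 it had 1 to 16 and 4 to 5 counts, and at D28 1, 6, 23 and 112 counts (0.0441, 0.314, 1.27 and 5.72 CPM). Its D7 and D14 changes were -0.76 and -0.25 on the log2 scale, neither called. Replicate 1 of D1 and replicate 4 of D28 stand above the rest of their groups. The change was 2.53 (edgeR, adjusted p = 0.076) at D1 and 2.44 (adjusted p = 0.12) at D28, and the step from D14 to D28 was called (2.68 ± 0.869, adjusted p = 0.04), where 3.91% of miRNAs were called higher. Leaving out both libraries, an alternative chosen after seeing the data, ended that call (0.97, edgeR, adjusted p = 0.32) and gave 1.34 (adjusted p = 0.19) at D1 and 1.61 (adjusted p = 0.035) at D3. The summed leukocyte list and cell markers of replicate 1 of D1 lay within the range of its group, apart from the fibroblast markers at 14150 against 14680 to 18250 CPM. Replicate 4 of D28 lay above its group in the miR-126a arms (22060 against 14700 to 19710 CPM), the mural markers (26800 against 17890 to 22630 CPM) and the lymphocyte miRNAs (178 against 95.1 to 129.6 CPM), and within it in the leukocyte list. The part of these in the counts of miR-223-3p was not tested. miR-223-5p in FBs had 0 to 88 counts and no called change.

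Other leukocyte list members rose in FBs while miR-142a fell. miR-155-5p, miR-21a-5p, miR-146b-5p and miR-147-3p were called higher at D3, D7 and D14, with log2 fold changes of 2.70, 1.75, 1.47 and 1.30 at D14. These are 4 of 8 list members, where 22.9%, 24.5% and 14.4% of all miRNAs were called higher. The median of the 8 list members tested was 0.88 at D14, beside -0.01 over all miRNAs tested. miR-150-5p, miR-342-3p and miR-181a-5p were called lower at D7. The fibroblast marker miR-199a-5p was called higher at D14 (0.49, edgeR, adjusted p = 0.042), and neither fibroblast marker was called on another day. The red cell miR-144-3p was called lower at D7, D14 and D28 (-1.31, -2.11 and -1.84), and the cardiomyocyte miR-1a-3p (-1.27) and the mural miR-145a-5p (-0.59) at D7. The part of these shifts in the fall of miR-142a was not tested.

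The change against D0 differed between HCs and the other isolates in 16 of 55 tests of the difference, which leave out miR-223-5p in ECs for its low counts. In these tests on all 96 libraries, a negative value means a larger rise outside HCs. Against CMs, miR-223-3p gave -3.97 at D3 (edgeR, adjusted p = 0.00055), -3.77 at D7 and -3.51 at D14. miR-142a-5p gave -2.57, -2.72, -2.64 and -2.22 from D3 to D28, miR-142a-3p -2.36 at D3 and -2.01 at D7, and miR-223-5p -3.40 at D3. The called members were thus 4 of 4 at D3, where 39.5% of miRNAs differed in either direction, 3 of 4 at D7 (41%), 2 of 4 at D14 (36.4%), 1 of 4 at D28 (28.7%) and none at D1 (26.8%). At D1, 1 member, miR-223-5p, had an unadjusted p under 0.05 against CMs (0.0342). The size of the miR-223 differences from CMs is uncertain. The CM libraries of D0 held 5 counts of miR-223-3p and 2 counts of miR-223-5p in total.

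Against FBs the difference had the opposite sign for miR-142a. miR-142a-5p gave 1.73 at D3 (edgeR, adjusted p = 0.019), 2.32 at D7 and 2.50 at D14, and miR-142a-3p gave 1.91 at D7 (adjusted p = 0.01) and 1.87 at D14 (adjusted p = 0.02). The called members were 1 of 4 at D3, 2 of 4 at D7 and 2 of 4 at D14, where 27.4%, 13.6% and 8.01% of miRNAs differed. Against ECs only miR-142a-5p at D3 was called (2.13, edgeR, adjusted p = 0.013), 1 of 3 members where 31.6% of miRNAs differed. All these tests share the HC libraries of D0. Without the shallow one and 2 others that lay far from their groups, 18 of 55 were called, and with day and number as a block, an alternative chosen after seeing the data, 17 were, the 16 among them in both cases.

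**Figure D4:**
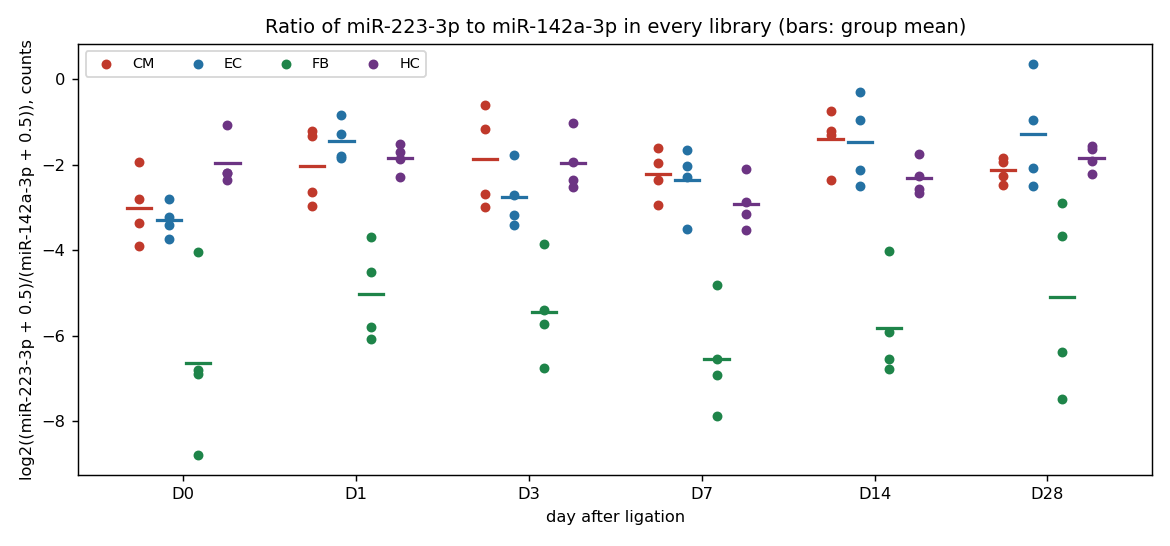
Log2 ratio of the counts of miR-223-3p and miR-142a-3p, with 0.5 added to each, in every library, with bars for the group means. FB libraries lie between -8.79 and -2.89, and those of HCs between -3.53 and -1.03.

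The balance of the myeloid to the pan-leukocyte miRNA within a library does not depend on how the library is scaled. In HCs there were 8.63 to 49.0 counts of miR-223-3p per 100 counts of miR-142a-3p, with a median of 21.9 over 24 libraries. The ratio in CMs, 0 to 65.7 with a median of 21.4, and in ECs, 6.52 to 133 with a median of 21, overlapped that range, and in FBs it was 0.194 to 13.4 with a median of 1.48. On each of the 6 days all 4 FB libraries lay below all 4 HC libraries, which gives p = 0.0286 in an exact two-sided permutation test, the smallest that 70 arrangements allow. The EC libraries of D0, at 6.52 to 10.5, lay below those of HCs in the same way, with a mean log2 difference of -1.34 and the same p. Adjusted over the 18 comparisons with HCs this is 0.0735 (exact permutation test), so no comparison passed the threshold. The mean log2 difference of FBs from HCs was -4.67 at D0 and -3.16 to -3.62 later.

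Over time the ratio in HCs was 19.5 to 46.7 per 100 on D0, 20.6 to 34.7 on D1, 17.4 to 49.0 on D3, 8.63 to 23.3 on D7, 15.9 to 29.9 on D14 and 21.6 to 33.6 on D28. The highest value of D0 belongs to the shallow library, and its other 3 libraries lie at 19.5 to 22.0. The mean of D7 was lower than that of D0 by 0.97 on the log2 scale (exact permutation test, two-sided, p = 0.114, adjusted p = 0.343), and by 0.67 without the shallow library, and the difference between the fall of miR-223-3p and that of miR-142a-3p from D3 to D7 was not tested. In ECs the ratio went from 6.52 to 10.5 at D0 to 27.3 to 55.2 at D1, a mean difference of 1.85 with p = 0.0286 in the exact permutation test and 0.19 after adjustment over 20 comparisons against D0. D14 and D28 of ECs gave the same p with differences of 1.82 and 2.00. The lowest p among the other comparisons was 0.0571 (exact permutation test), for CMs at D14, and the direction in CMs changed with a pseudocount of 5 on 4 of the 5 days.

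The share of the miR-223 counts that came from the 3p arm was highest in HCs at D1 and D3. In the 3 deep D0 libraries it was 65.95% ± 3.32 (SD, n = 3), and in the shallow one 21 of 24 counts, 87.5%. It was 83.1% ± 5.83 (SD, n = 4) on D1, 81.9% ± 6.91 on D3, 71.1% ± 0.785 on D7, 74.6% ± 2.24 on D14 and 75.5% ± 2.82 on D28. limma on the log2 ratio of the arms of 152 hairpins gave a difference from D0 of 0.99 ± 0.360 (SE, adjusted p = 0.067) on D1 and 0.87 ± 0.360 (limma, adjusted p = 0.095) on D3 with all libraries. Without the shallow library it gave 1.40 ± 0.300 (limma, adjusted p = 0.0021) and 1.29 ± 0.300 (adjusted p = 0.0023). Both calls also appeared when replicate 3 of D3 was left out, and that of D1 alone without replicate 1 or 2 of D1. With all libraries, 15.8% of hairpins were called at D1 and 22.4% at D3, and neither miR-223 nor miR-142a was among them, although miR-223 had an unadjusted limma p of 0.0124 at D1 and 0.0243 at D3.

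**Figure D5:**
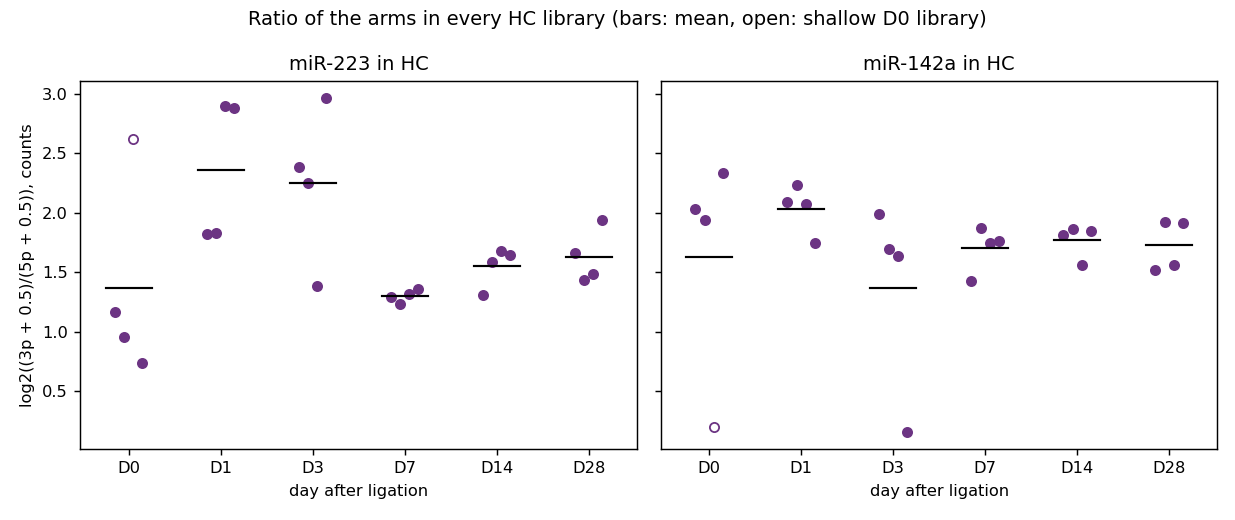
Log2 ratio of the 3p to the 5p counts of miR-223 and miR-142a, with 0.5 added to each, in every HC library by day, with bars for the mean of all 4 libraries. The open circle is the shallow D0 library, which lies above the other 3 of its group for miR-223 and below them for miR-142a, and 1 further library, of D3, lies low for miR-142a at 0.16.

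No change in the arm ratio of miR-142a was called in HCs. The 3p arm made up 81.0% ± 2.16 (SD, n = 3) of the miR-142a counts in the deep D0 libraries, 53.6% in the shallow one and 71.2% to 80.3% in the means of the later days. In CMs the share fell from 77.0% ± 14.7 (SD, n = 4) at D0 to 62.3% ± 3.41 at D14 and 62.7% ± 5.54 at D28, which limma called (-1.08, adjusted p = 0.029, and -1.06, adjusted p = 0.034), where 72.7% and 67.7% of hairpins were called. The CM libraries of D0 held only 7 to 17 counts of the 3p and 1 to 5 counts of the 5p arm, and a pseudocount of 5 in place of 0.5 ended both calls (adjusted p = 0.31 and 0.26). Leaving out replicate 1 or replicate 3 of D0 ended both as well, leaving out any of 5 libraries of D14 and D28 ended 1 of them, and leaving out replicate 4 of D0 added calls at D3 and D7. In FBs the share was 73.7% ± 0.402 at D0 and 80.7% ± 1.60 at D14 (limma, adjusted p = 0.18). The miR-223 arms had too few counts outside HCs for this test.

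The miRNAs whose profile was most like that of a member were found by Pearson's r of log2 CPM on the TMM scale. The other arm of the member's own hairpin was left out of its list, as were miRNAs with counts identical to those of a listed miRNA. Over all 96 libraries of the 4 cell types, miR-223-3p was most like miR-511-3p (0.911), miR-142a-3p (0.898), miR-142a-5p (0.874), miR-425-5p (0.848) and miR-339-5p (0.835) among 299 miRNAs that reached a mean of 10 CPM. miR-142a-3p was most like miR-223-5p (0.925), miR-223-3p (0.898), miR-340-5p (0.869), miR-16-1-3p (0.866) and miR-362-5p (0.861). Within the 24 HC libraries the lists changed. miR-223-3p was then most like miR-210-3p (0.867), a miRNA induced by hypoxia, miR-340-5p (0.832), miR-450b-5p (0.790), miR-15b-5p (0.769) and miR-148b-3p (0.750), and miR-142a-3p like miR-466a-3p (0.862), miR-20a-5p (0.861), miR-467c-3p (0.860), miR-467d-3p (0.853) and miR-669a-3-3p (0.838), among 313 miRNAs. Several of the last group had a mean of only 10.4 to 14.2 CPM. Between the members, r of log2 CPM over the 24 libraries of a type was 0.949 for miR-223-3p with miR-142a-3p in CMs and 0.705 in HCs. In ECs it was 0.275 and in FBs 0.357. Without the libraries farthest from the rest the listed values were 0.744 to 0.923. The libraries share days, cell type and scaling, so these values are descriptions.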

How the data were processed

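Small RNA libraries (NEBNext kit) had been sequenced from the 4 isolates with different RNA input and PCR cycles per cell type. The authors removed reads under 18 bases and deposited raw counts per mature miRNA and per hairpin (nf-core/smrnaseq, miRBase version 21), and per the labels Bowtie2, Trim Galore, SAMtools and mm10 were used, without versions. Mature counts were tested with edgeR 4.0.16 (quasi-likelihood, TMM, filterByExpr, Benjamini-Hochberg, threshold 0.05) within each cell type on its 24 libraries and, between types, on all 96. In CMs, ECs, FBs and HCs 484, 421, 563 and 608 miRNAs passed the filter. CPM are counts per 1000000 mature counts. Arm ratios used limma 3.58.1 on log2 of counts plus 0.5 where each arm of a hairpin averaged 10 counts or more. The ratio of miR-223-3p to miR-142a-3p was tested by exact permutation. Tests were checked on simulated counts, and DESeq2 1.42.0 and other settings served as alternatives. Intervals cover counting error only, since reads carry no molecular identifiers. The members and marker lists were chosen with earlier results of these data known. Genes were named by list, and the nearest profiles were the 5 highest correlations among miRNAs of at least 10 CPM, without the other arm of the same hairpin. The labels' replicate numbers were not taken to pair libraries across days, since 5 to 9 of 60 same-numbered pairs within a cell type had a correlation over 0.1. The study's methods dropped 3 libraries as outliers, from D0 of HCs, D0 of FBs and D28 of ECs, without giving their numbers, whereas all 96 were kept here, and 1 alternative leaves out the library of each of these groups farthest from the rest. No 2 libraries of a group were identical.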

Additional observations from a re-analysis of the deposited data

Results flagged for a closer look

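In 15 of 120 groups of 4 libraries, 1 library stood apart by Dixon's test, which chance alone gives in about 1 of 20 groups. Values are log2 CPM, with the range of the other 3 libraries after each. Replicate 1 of CMs at D28 was low for 3 members, at -1.95 for miR-223-3p (others 0.99 to 1.49), 0.52 for miR-142a-3p (3.25 to 3.33) and -0.67 for miR-142a-5p (2.58 to 2.82). In CMs at D7, miR-223-5p was low in replicate 4 at -1.92 with 4 counts, and miR-142a-3p high in replicate 2 at 5.93 (4.34 to 4.58). In FBs, miR-223-3p was high in replicate 1 of D1 at 2.62 (-0.11 to 0.19) and in replicate 2 of D7 at -0.62 with only 2 counts, and miR-142a-3p was low in replicate 3 of D3 at 4.51 (6.19 to 6.42).

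In ECs the libraries that stood apart held few counts. They were replicate 1 of D0 for miR-223-5p at -0.77 with 1 count, replicate 1 of D1 and of D28 for miR-142a-3p at 3.98 and 4.01 with 22 and 8 counts, and replicate 4 of D7 for miR-142a-5p at -0.87 with 1 count. In HCs, miR-223-3p was low in replicate 1 of D28 at 10.31 (10.42 to 10.44), and miR-142a-5p was high in replicate 4 of D1 at 12.11 (11.30 to 11.35). The log2 ratio of miR-223-3p to miR-142a-3p was high in the shallow replicate 3 of HCs at D0, at -1.08 (-2.36 to -2.19).

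The change against D0 differed between HCs and another isolate by edgeR's test of the difference in 16 of 55 cases, given as the HC change minus the other change. Against CMs the difference was -3.97 at D3, -3.77 at D7 and -3.51 at D14 for miR-223-3p, -3.40 at D3 for miR-223-5p, -2.36 at D3 and -2.01 at D7 for miR-142a-3p, and -2.57, -2.72, -2.64 and -2.22 from D3 to D28 for miR-142a-5p. Against ECs it was 2.13 at D3 for miR-142a-5p. Against FBs it was 1.73 at D3, 2.32 at D7 and 2.50 at D14 for miR-142a-5p, and 1.91 at D7 and 1.87 at D14 for miR-142a-3p. The miR-223 differences from CMs rest on 5 counts of miR-223-3p and 2 counts of miR-223-5p in all CM libraries of D0.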

How the results depend on the processing

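Depth limits these results most in CMs at D0, where members had 0 to 17 counts per library, for miR-223 in ECs, with 0 to 161, and in the shallow HC library of D0. In HCs, the called rises of miR-223-3p at D1 and D3 and of both miR-142a arms at D1, D3 and D7 kept their sign and their call under each setting run on them, hairpin counts and left-out libraries included, as did the 66 higher levels in HCs than in the other isolates and the 16 differences of HC changes under the settings run on those. All signs that turned belong to changes that were not called with TMM factors and all libraries, and the cause was not tested. miR-223-5p at D14 in CMs was called after its sign turned, by library size alone (2.21, edgeR, adjusted p = 0.045).

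Scaling by library size alone gave 14 called contrasts against D0 in HCs (9 with TMM) and 1 in FBs (3 with TMM), and 4 between successive days in CMs (1 with TMM) and 0 in FBs (1 with TMM). It turned miR-223-5p at D14 in CMs to 2.21, at D14 and D28 in HCs to 0.065 and 0.26, miR-142a-3p at D1 in FBs to 0.17 and miR-142a-5p at D3 in FBs to 0.14. Between successive days it turned D7 against D3 in CMs to 0.20 for miR-142a-5p and 0.037 for miR-142a-3p, D14 against D7 in CMs to 0.10 for miR-223-3p, and in ECs D7 against D3 to 0.069 and D28 against D14 to -0.24 for miR-223-3p.

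Without a filter on low counts there were 9 calls against D0 in FBs, 4 and 5 between successive days in CMs and FBs, and 3 and 11 differences of HC changes from those of ECs and FBs (1 and 5 with the filter). Signs turned for miR-223-5p at D14 in CMs (0.21) and D7 in HCs (-0.073), miR-142a-5p at D14 in ECs (-0.076), miR-142a-3p at D1 in FBs (0.063), miR-223-3p in ECs between D14 and D28 (-0.036) and the HC minus EC difference of miR-142a-5p at D28 (0.037). DESeq2 gave 4 calls in ECs (2 with edgeR) and 4 between successive days in CMs, and turned miR-142a-5p at D14 in ECs (-0.16), miR-142a-3p at D1 in FBs (0.019) and miR-223-5p at D28 in HCs (0.046). Fits of D0 and the compared day alone gave 1 call in ECs and turned miR-142a-3p at D3 in FBs (-0.014) and miR-223-5p at D28 in HCs (0.20).

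With the replicate number as a block, calls between successive days became 2 in CMs, 0 in FBs and 1 in HCs (1, 1 and 2 without it), miR-142a-3p at D14 in FBs lost its call, and miR-223-5p at D7 in HCs was -0.010, while the HC minus EC difference of miR-142a-5p at D28 turned to 0.14. The labels do not say what the numbers pair. Of 24 pairs of the same day and number, 8 of HCs with CMs, 1 with ECs and 4 with FBs had a correlation over 0.1, and 36 of 96 libraries correlated best with their own number. Without the 3 libraries farthest from their groups, 2 HC arm ratios were called, and signs turned for miR-142a-5p at D14 in ECs (-0.099) and D1 in FBs (-0.054), miR-142a-3p at D3 (-0.077) and miR-223-3p at D14 in FBs (0.13), miR-223-5p at D7 in HCs (-0.13), miR-223-3p in ECs between D14 and D28 (-0.23), the miR-142a arm ratio at D28 in ECs (0.37) and at D1, D7, D14 and D28 in HCs (-0.063, -0.40, -0.33 and -0.37), and the miR-223 arm ratio at D7 in HCs (0.34).

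A pseudocount of 5 left 0 arm ratios called in CMs and 2 in HCs, and turned the miR-142a arm ratio in CMs at D1, D3 and D7 (0.56, 0.22 and 0.015) and that of miR-223 in HCs at D7 (0.16). It turned the ratio of miR-223-3p to miR-142a-3p in CMs against D0 at D1, D3, D7 and D28 (-0.42, -0.38, -0.75 and -0.37) and against HCs at D0, D1 and D28 (0.51, 0.016 and 0.049). A minimum of 50 counts per arm left 1 arm ratio called in HCs. The ratio from the 5p arms turned sign against D0 in CMs from D1 to D28 (-0.43, -1.32, -3.06, -3.42 and -1.74), at D14 in ECs (-0.33), at D1 and D3 in FBs (-0.075 and -0.99) and at D1 and D28 in HCs (-0.47 and -0.037), and against HCs at D3, D7 and D14 in CMs (-0.44, -2.51 and -3.29) and at D3 and D14 in ECs (1.05 and -1.38).

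On the TMM scale of all 96 libraries the CM level as a percent of HCs became 0.991% for miR-223-3p, 0.426% for miR-223-5p, 0.758% for miR-142a-3p and 1.14% for miR-142a-5p, and the EC level of miR-142a-3p 0.291%. The hairpin tables, chosen as an alternative after seeing the data, turned miR-142a in ECs at D14 and D28 (0.13 and 0.58) and at D1 in FBs (0.75), and miR-223 in FBs at D7 and D14 (0.042 and 0.45).

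Leaving out 1 library at a time gave 8 to 14 calls against D0 in HCs (14 without replicate 4 of D3), 0 to 3 in ECs (0 without replicate 2, 3 or 4 of D0) and 1 to 5 in FBs (1 without replicate 3 of D0 or 1 of D7, 5 without replicate 3 of D7), and 0 to 4 arm ratio calls in CMs and 0 to 2 in HCs. Signs turned for miR-223-5p at D14 in CMs (-0.60 to 0.44), at D1, D3, D7 and D14 in FBs (-0.77 to 2.12, -1.46 to 0.19, -0.22 to 1.30 and -0.30 to 1.22) and at D3, D7 and D28 in HCs (-0.056 to 0.55, -0.090 to 0.21 and -0.14 to 0.16). They turned for miR-142a-5p at D1, D3, D14 and D28 in ECs (-0.53 to 0.15, -0.60 to 0.075, -0.49 to 0.50 and -0.56 to 1.08) and at D1 and D3 in FBs (-0.26 to 0.50 and -0.43 to 0.26), for miR-142a-3p at D1 and D3 in FBs (-0.19 to 0.44 and -0.14 to 0.48) and for miR-223-3p at D14 in FBs (-0.55 to 0.13). For the miR-142a arm ratio the ranges were -0.55 to 0.42 at D1 in CMs, -0.16 to 0.67 at D7 and -1.21 to 0.37 at D28 in ECs, -0.36 to 0.12 at D1 and -0.0051 to 0.34 at D3 in FBs, and -0.063 to 0.65, -0.73 to 0.15, -0.40 to 0.31, -0.33 to 0.38 and -0.37 to 0.34 from D1 to D28 in HCs. For the miR-223 arm ratio in HCs they were -0.28 to 0.34 at D7 and -0.026 to 0.60 at D14. Steps between successive days were not refitted without single libraries.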

Other observations

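Counts in the hairpin tables, which in some libraries were lower than those on the arms and so do not contain them, were read beside those on the arms. In HCs mir-223 rose by 2.17 at D1 and 1.66 at D3 and was also called at D7 (0.46, edgeR, adjusted p = 0.022) and D28 (0.63). mir-142a rose by 0.64 at D1 (edgeR, adjusted p = 0.01), 0.72 at D3 and 0.49 at D7 (adjusted p = 0.048), where its 3p arm gave 1.49, 1.30 and 1.11. In CMs both hairpins were called higher on all 5 days, with 5.80 for mir-223 and 3.78 for mir-142a at D3. In FBs mir-223 was called at D1 (2.23, edgeR, adjusted p = 0.045) and D28 (2.53, adjusted p = 0.026), where the mature arm was not. In the other direction, mir-223 was not called in ECs at D3 (0.87, edgeR, adjusted p = 0.37) or D7 (1.36, adjusted p = 0.12), where the mature arm was, but at D28 (1.61, adjusted p = 0.047), and mir-142a was not called in FBs at D14 (-0.99, adjusted p = 0.13), where both arms were. The hairpin counts of mir-142b were identical to those of mir-142a in 38 of 96 libraries and exceeded them by at most 4.35% elsewhere, so the strands of this locus cannot be told apart in the hairpin tables.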
